A study of Rattus norvegicus with 4 samples.

Results

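Genes of the major histocompatibility complex (MHC) and of the antigen presentation pathway were examined in the hippocampus of rats after voluntary exercise. They were every probe on the array whose accession resolved to a symbol starting with RT1-, the name of the rat MHC, or to one of 15 further genes of the pathway. This gave 39 genes of 8899 named on the array, measured by 50 probes (59 spots). A probe was found for 26 of the 67 RT1 symbols that RefSeq lists. Of the 15 further genes 13 had one, while no probe resolved to Nlrc5 or Erap1. The genome assembly GRCr8 places 31 of the 39 genes on chromosome 20, where the rat MHC lies.

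MHC class I molecules consist of a heavy chain and the light chain B2m and show peptides from inside the cell to CD8 T cells. The immunoproteasome cuts these peptides, the transporter Tap1 and Tap2 carries them into the endoplasmic reticulum, and Tapbp, Calr and Pdia3 load them. MHC class II molecules show peptides from outside the cell to CD4 T cells and, in the brain, are mostly found on microglia and on cells at its borders, whereas class I molecules are also made by neurons and are known for a role in synaptic plasticity.

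The 3 groups were male Wistar rats, 10 weeks old at the start. Sedentary rats (Sed, n = 10) lived in standard cages, and the rats of the wheel running group (WR, n = 8) ran on a wheel without load for 4 weeks. The rats of the resistance wheel running group (RWR, n = 8) ran for 4 weeks against a resistance that began at 4.5 g in the first week and was raised to 30% of body weight. Replicate hippocampal RNA of each group was pooled before labelling, with the number of rats in a pool not clear from the sources used here, and each running pool was hybridized with a sedentary pool in 2 colours, WR on chips 1 and 2 and RWR on chips 3 and 4. The running group carried Cy5 on chips 1 and 3 and Cy3 on chips 2 and 4. The chips of a pair therefore measured the same pools, and each comparison rests on 1 biological replicate, for which neither a test nor an error between animals exists. The spread between the chips of a pair is technical.

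Values are log2 ratios of running over sedentary on each chip, so that 0 means equal signal. Dye effects were large: over 41003 probes the ratios of the 2 chips of a pair correlated at r = -0.76 (WR) and -0.69 (RWR), while chips with the running group in the same dye correlated at 0.71 (chips 1 and 3) and 0.70 (chips 2 and 4). The direction of every ratio rests on the dye labels. A probe was called up-regulated where each chip of a pair gave over 1.5-fold, and down-regulated where each gave under 0.75-fold, in both cases with deposited p-values under 0.01, which describe single chips. Of the 50 probes, 34 (28 genes) had signal well above background for both pools of every chip, 12 only in part, and 4 for no pool. Of the neuron markers, 4 of 6 had a probe, and all of these 4 (Camk2a, Neurod2, Slc17a7 and Snap25) were well above background on every chip.

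The sequence before the start site of a gene is where the MHC enhancers lie, and RefSeq promoters (GRCr8, from the BN/NHsdMcwi strain and not from Wistar rats) were given for 35 of the 39 genes. No promoter was given for Ciita, Pdia3, RT1-CE7 and RT1-M2. The 250 bases before the start site are shown for the called gene (RT1-M6-2), for a class I chain, both MHC-encoded immunoproteasome subunits and a transporter subunit (RT1-A2, Psmb8, Psmb9 and Tap1), and for a class II chain (RT1-DMa). Capitals mark the matches, on either strand, to the exact letters of 4 motifs. CCAAT is the Y box of MHC promoters, and GAAANNGAA a core of the interferon-stimulated response element. TTCNNNGAA is the gamma-interferon activation site. TGACGT is the core of the cyclic AMP response element and was searched for the X2 box. X2 boxes with other letters are not counted.
RT1-A2 (chr20:4872621-4872870, plus strand): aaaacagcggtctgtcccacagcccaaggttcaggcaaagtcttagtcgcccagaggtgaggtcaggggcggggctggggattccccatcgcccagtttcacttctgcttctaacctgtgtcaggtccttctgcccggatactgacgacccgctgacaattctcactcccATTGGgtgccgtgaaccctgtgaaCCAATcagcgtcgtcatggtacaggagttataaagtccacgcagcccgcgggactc
RT1-M6-2 (chr20:1588283-1588532, plus strand): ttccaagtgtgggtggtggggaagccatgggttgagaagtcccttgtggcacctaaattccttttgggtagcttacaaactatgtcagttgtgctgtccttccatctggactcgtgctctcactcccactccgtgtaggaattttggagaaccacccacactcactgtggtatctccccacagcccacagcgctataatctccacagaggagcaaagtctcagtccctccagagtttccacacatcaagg
Psmb8 (chr20:4657032-4657281, minus strand): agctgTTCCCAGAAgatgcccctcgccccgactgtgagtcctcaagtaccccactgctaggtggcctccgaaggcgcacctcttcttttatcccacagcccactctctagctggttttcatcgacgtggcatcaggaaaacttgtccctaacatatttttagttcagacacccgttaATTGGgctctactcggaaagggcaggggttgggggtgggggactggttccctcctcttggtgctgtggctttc
Psmb9 (chr20:4668750-4668999, plus strand): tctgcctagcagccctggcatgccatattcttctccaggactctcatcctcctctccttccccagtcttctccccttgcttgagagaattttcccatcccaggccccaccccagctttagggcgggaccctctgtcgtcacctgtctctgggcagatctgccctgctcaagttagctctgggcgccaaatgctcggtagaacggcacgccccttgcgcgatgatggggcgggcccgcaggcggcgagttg
Tap1 (chr20:4668544-4668793, minus strand): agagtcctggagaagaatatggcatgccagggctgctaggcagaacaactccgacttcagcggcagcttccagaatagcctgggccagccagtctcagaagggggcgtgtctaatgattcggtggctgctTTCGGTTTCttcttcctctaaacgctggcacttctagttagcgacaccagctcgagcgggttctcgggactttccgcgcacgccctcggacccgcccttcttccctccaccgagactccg
RT1-DMa (chr20:4712336-4712585, minus strand): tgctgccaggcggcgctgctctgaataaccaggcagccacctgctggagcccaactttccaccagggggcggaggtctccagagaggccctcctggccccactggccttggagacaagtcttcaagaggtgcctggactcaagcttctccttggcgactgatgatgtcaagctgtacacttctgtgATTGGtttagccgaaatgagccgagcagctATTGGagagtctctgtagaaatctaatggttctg

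The Y box stood in 22 of the 35 promoters (62.9%) against 34.0% of 33469 rat promoters of the same length, and in 7 of 7 class II promoters, RT1-DMa among them. RT1-A2 held it 2 times, once on each strand. The interferon-response core stood in 7 of the 35 (20%) against 8.12%, namely in B2m, Ctss, Psmb10, RT1-S3, Tap1, Tap2 and Tapbp, with 3 matches in Psmb10 and 2 in Tapbp, of which 2 overlap each other in both genes. The activation site stood in 2 promoters (5.71% against 7.67% of all), those of Psmb8 and RT1-M3-1. The letters TGACGT stood in 2 (5.71% against 6.95%), those of Canx and RT1-Ba, which is no count of X2 boxes. In these promoters 0 matches of the interferon-response core overlapped the activation site. RT1-M6-2 and Psmb9 held none of the letters searched in this window. Psmb9 and Tap1 start 457 bases apart on opposite strands, and their windows share 44 bases. The matches are a description of the reference sequence. Only exact letters were searched, and only in this window. A promoter without a match, such as RT1-A2 for the interferon-response core, may still hold a variant of the element.

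The expression question was whether running, with or without resistance, changed these genes in the hippocampus. In Sed × WR, 1 of the 50 probes was up-regulated. It was the only up-regulated probe among all 41008 (0.00244%), so this share is no separate background for it. Of the 50 probes, 0 were down-regulated, against 0.0293% of all probes. In Sed × RWR, 0 probes were up-regulated, against 0.00975% of 41007 probes, and 0 were down-regulated, against 0.0488%.

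The called probe belonged to RT1-M6-2, a nonclassical class I gene of the M region. Its processed signal was 128 in the WR pool and 48.6 in the sedentary pool on chip 1, and 111 and 33.6 on chip 2. In the RWR pair it was 69.7 against 51.3 on chip 3, and 52.3 against 30.0 on chip 4. The running pool was the brighter one on each chip, and the log2 ratios were 1.40 and 1.73 in WR (mean 1.57, 2.96-fold) and 0.44 and 0.80 in RWR (mean 0.62, 1.54-fold). The other probe of RT1-M6-2, A_44_P309052, which carries the same accession, did not show this. Its processed signal was 1368 in the WR pool and 1310 in the sedentary pool on chip 1, and 1327 and 1173 on chip 2, which gave ratios of 0.06 and 0.18. On chips 3 and 4 its ratios were -0.12 and 0.07. The call of A_44_P426792 was lost with normexp background correction and loess (0.25 and 0.99 in WR, mean 0.62) and without background correction (0.41 and 0.79, mean 0.60). In RWR this probe gave 0.04 and 0.61 with normexp (mean 0.33) and 0.01 and 0.44 without background correction (mean 0.23).

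**Figure D1:**
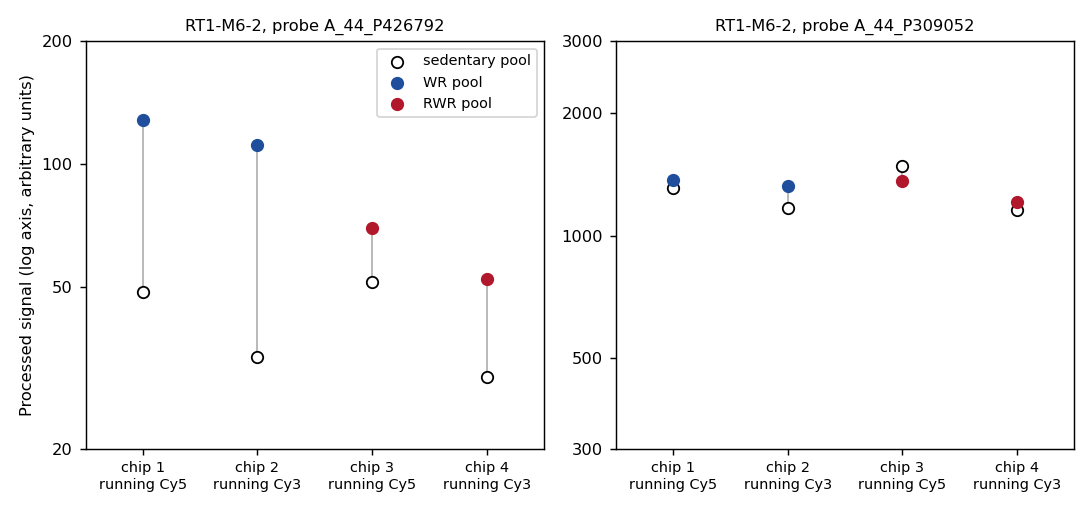
Processed signal (log axis, arbitrary units, a separate scale for each probe) of both RT1-M6-2 probes, with the pools hybridized together joined by a line on each chip and the dye of the running pool under it. The WR pool lay at 128 and 111 against 48.6 and 33.6 in the sedentary pool at the called probe A_44_P426792, while both pools stayed close at A_44_P309052.

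The remaining class I heavy chains present peptides at the cell surface (RT1-A2, a classical class I molecule) or belong to the further class I genes named RT1-CE, RT1-S, RT1-T and RT1-M. In Sed × WR 7 of the 17 class I probes that were well above background on both chips had a ratio under 0 on both, 5 were above 0 on both, and 5 had opposite signs. At RT1-A2 the first probe gave a signal of 1370 in the WR pool and 1713 in the sedentary pool on chip 1, and 1403 and 1521 on chip 2. The log2 ratios of this probe were -0.32 and -0.12, and those of the second RT1-A2 probe were -0.20 and -0.30. Both probes of RT1-A2 thus read lower signal in the WR pool in either dye, with means of -0.22 and -0.25. The other probes under 0 on both chips were those of RT1-CE12 (-0.26 and -0.17), RT1-CE2 (-0.32 and -0.09), RT1-S3 (-0.20 and -0.20), RT1-CE1 (-0.23 and -0.14) and RT1-M3-1 (-0.16 and -0.05). None of them passed the fold cutoff, the lowest mean being 0.841-fold (RT1-A2). RT1-CE16 (0.08 and 0.04), RT1-CE3 (0.01 and 0.20) and a dim probe of RT1-T18 (0.63 and 0.37) lay above 0 on both chips. The second RT1-T18 probe, not well above background, gave 0.62 and -0.34, and the mean of the first, 0.50, was 0.12 with normexp and 0.18 without background correction.

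In Sed × RWR RT1-A2 gave -0.23 and 0.11 at its first probe and -0.13 and -0.05 at the second. RT1-CE12 gave -0.16 and 0.01, RT1-CE2 -0.22 and 0.05, RT1-S3 -0.14 and -0.05, RT1-CE1 -0.15 and -0.01, and RT1-M3-1 -0.20 and -0.06. The means of the first 5 of these genes lay nearer to 0 than in WR, that of RT1-M3-1 farther. RT1-CE6, well above background for both pools only in the RWR pair, gave -0.23 and 0.04. In all, 6 of 17 class I probes were under 0 on both chips and 3 above. The lowest means were those of RT1-CE7 (-0.10 and -0.37) and RT1-M5 (-0.23 and -0.20), which in WR had given 0.08 and -0.54, and -0.04 and 0.06. RT1-CE16 (0.03 and 0.10) and RT1-CE3 (0.01 and 0.23) lay above 0 on both chips here as well. The probes of RT1-CE4 (2 probes) and RT1-CE5 (A_42_P511274) changed sign with the dye in both comparisons. Some class I genes are close copies of each other, and their number differs between RT1 haplotypes. How similar the genes measured here are was not examined. Which copies a probe reads in Wistar rats was not tested, so that the probes of RT1-A2, RT1-CE1, RT1-CE2, RT1-CE12 and RT1-S3 may share targets.

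B2m, the light chain of all class I molecules, was measured by 1 probe with 10 spots and a second probe with 1 spot. The 10 spots gave a mean ± SD of -0.30 ± 0.018 on chip 1, 0.07 ± 0.018 on chip 2, -0.18 ± 0.017 on chip 3 and 0.15 ± 0.024 on chip 4 (n = 10 spots of 1 chip each). The second probe gave -0.30, 0.11, -0.19 and 0.16. B2m was thus read precisely within a chip, and its sign followed the dye in both pairs. The means of the pairs were -0.12 and -0.10 in WR and -0.02 and -0.01 in RWR for the 10-spot and the 1-spot probe.

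The immunoproteasome subunits Psmb8, Psmb9 and Psmb10 replace the constitutive catalytic subunits of the proteasome and favour cleavage into peptides that fit class I molecules. In Sed × WR all 3 read under 0 on both chips. At Psmb9 the signal was 535 in the WR pool and 735 in the sedentary pool on chip 1, and 540 and 603 on chip 2, with ratios of -0.46 and -0.16 (mean -0.31, 0.807-fold). At Psmb8 the signal was 214 against 224 on chip 1 and 164 against 252 on chip 2, with ratios of -0.07 and -0.62 (mean -0.35, 0.786-fold). At Psmb10 the ratios were -0.10 and -0.04. The WR pool was the dimmer one in each of these measurements, and the size depended on the chip. In Sed × RWR the ratios were -0.20 and 0.03 for Psmb9, 0.02 and -0.28 for Psmb8, and -0.07 and -0.03 for Psmb10, so that only Psmb10 kept 1 sign. None of the 3 was called in either comparison.

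Among the genes of peptide transport and loading, Canx, a chaperone of newly made heavy chains, gave -0.21 and -0.06 in WR and -0.24 and -0.13 in RWR. Calr, a further chaperone of the loading complex, gave -0.05 and -0.09 in WR and -0.03 and -0.01 in RWR. Both were under 0 on each chip by little. Tap1 gave 0.11 and -0.39 in WR and -0.07 and -0.34 in RWR, where it was under 0 on both chips. Tap2 (-0.27 and 0.11 in WR, -0.36 and 0.18 in RWR), Tapbp (-0.11 and 0.10, -0.08 and 0.21) and Pdia3 (-0.22 and 0.24, -0.31 and 0.22) changed sign with the dye in both pairs, in the same orientation.

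Most class II chains gave dim signal in this tissue. Of the 11 probes of the 7 class II chain genes, 4 were well above background on both chips of the WR pair and 5 on those of the RWR pair. RT1-DMa, which helps to load class II molecules, gave a signal of 2709 in the WR pool and 2648 in the sedentary pool on chip 1, and 2445 and 2277 on chip 2. Its ratios were 0.03 and 0.10 in WR and 0.01 and 0.19 in RWR, above 0 on each chip by at most 0.19. RT1-Bb, the beta chain of the B molecule, gave 0.20 and -0.03 in WR and 0.21 and -0.17 in RWR at 1 probe, and 0.12 and -0.21, and 0.25 and 0.02, at the other. RT1-Db1, the beta chain of the D molecule, gave 0.13 and -0.69 in WR and 0.16 and -0.45 in RWR at A_44_P130513. RT1-Da, the alpha chain of the D molecule, was well above background for both pools only in the RWR pair, at A_44_P991532, where it gave 0.37 and -0.52. The invariant chain Cd74, which guides class II molecules to the endosome, gave 0.32 and -0.45 in WR and 0.27 and -0.11 in RWR. Apart from RT1-DMa and 1 probe of RT1-Bb in RWR, the signs of these class II genes changed with the dye. Ctss, the protease that degrades the invariant chain, was measured by 2 probes, with 0.08 and -0.02 at A_44_P1004731 and 0.10 and 0.08 at A_44_P355928 in WR. In RWR these were 0.08 and 0.00, and -0.01 and -0.02.

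The transactivator of class II genes, Ciita, was well above background only in part. Its ratios of -1.47 and 2.93 in WR and -1.74 and 2.26 in RWR followed the dye. The probes RT1-DOb, RT1-M2, 1 of 2 of RT1-Da (A_44_P367688) and 1 of 3 of RT1-Db1 (A_44_P139882) were not well above background on any chip. RT1-A3, RT1-Ba, RT1-CE10, RT1-CE6, RT1-DOa, RT1-T24-2, the second probes of RT1-CE5, RT1-Da and RT1-Db1, and both of RT1-T18 were so only in part. No bound on a fold is given for these probes: at the second RT1-CE5 probe (A_44_P172850) the ratios had opposite signs in both pairs (-0.32 and 1.98 in WR, -0.96 and 0.67 in RWR), and at the others a lower bound of the fold was under 1 where it could be computed.

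**Figure D2:**
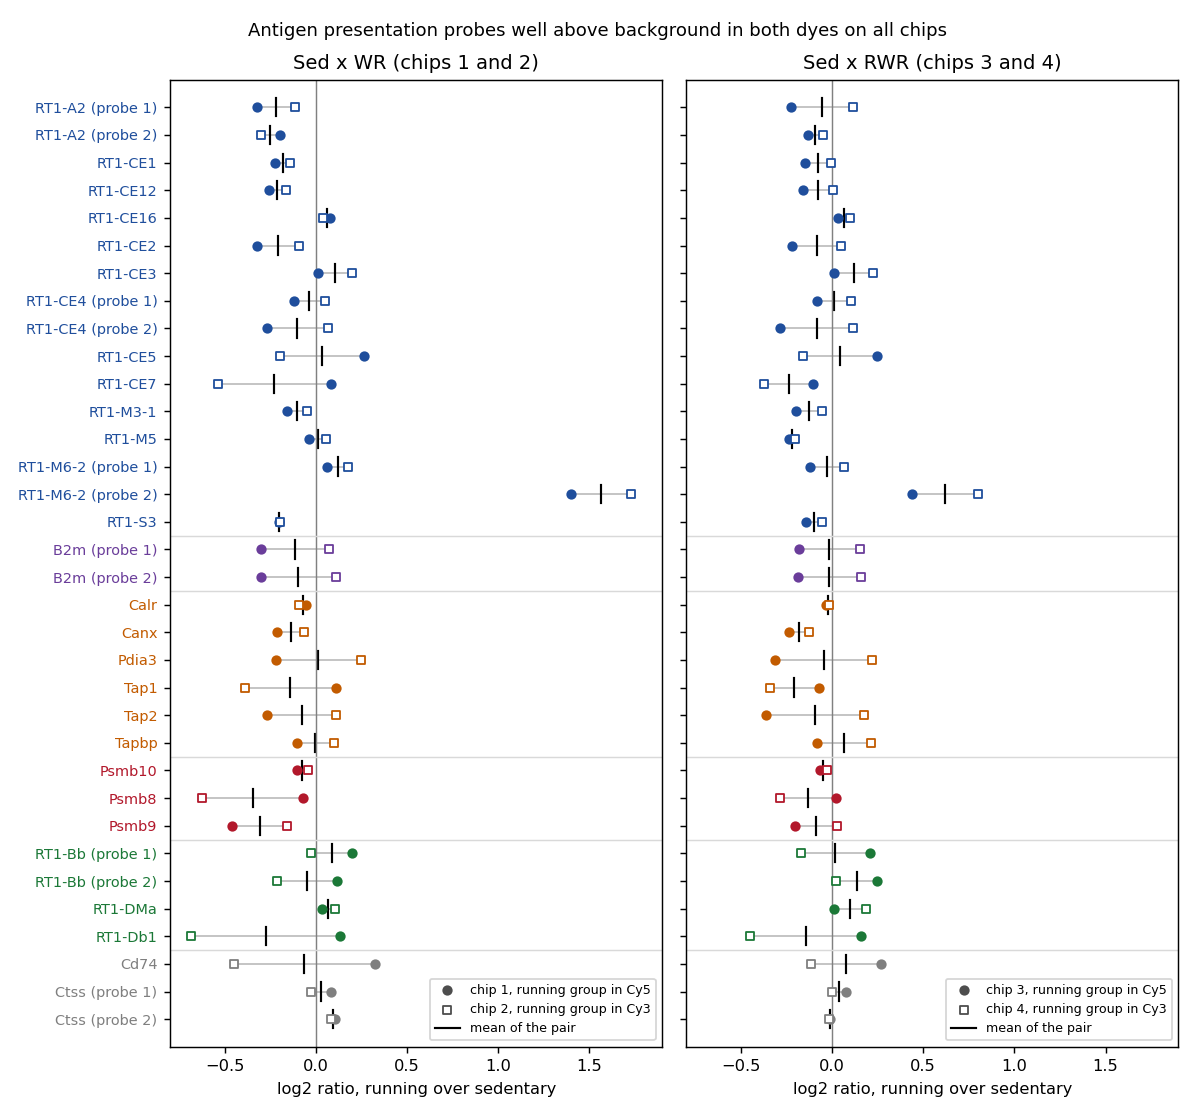
Log2 ratio of running over sedentary (horizontal axis) of the 34 probes with signal well above background for both pools of every chip, grouped by role, with filled circles for the chip with the running group in Cy5, open squares for that with Cy3 and a black bar for their mean. In WR the immunoproteasome and the probes of RT1-A2, RT1-CE1, RT1-CE12, RT1-CE2 and RT1-S3 lie left of 0 on both chips, whereas B2m, Tap2, Tapbp and Pdia3 change side with the dye.

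Over all genes, 12 of the 35 probes well above background (34.3%) were under 0 on both chips of the WR pair, against 13.8% of 25492 probes. Above 0 on both chips were 7 of 35 (20%), against 14.4%. In RWR 11 of 36 probes (30.6%) were under 0 on both chips, against 15.4% of 26920 probes, and 6 of 36 (16.7%) above 0, against 16.6%. Without the class I chains, some of whose probes may share targets, the counts under 0 were 5 of 18 (27.8%) in WR and 5 of 19 (26.3%) in RWR. All 12 probes of the WR pair stayed under 0 on both chips with normexp background correction or with none, whereas of the 11 probes of the RWR pair 7 did, and Calr, Ctss, RT1-CE1 and Tap1 did not. The median ratio over the 39 genes, each by its brightest probe, was -0.06 in WR and -0.06 in RWR, while that of all 8899 named genes was 0.00 in both. These shifts are small: 5% of all probes well above background lay below -0.15 in WR and below -0.17 in RWR. The median size of the mean ratio was 0.10 in WR, against 0.05 over all probes, and 0.08 in RWR, against 0.06. The median deviation of a chip from that mean was 0.10 in WR and 0.12 in RWR.

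**Figure D3:**
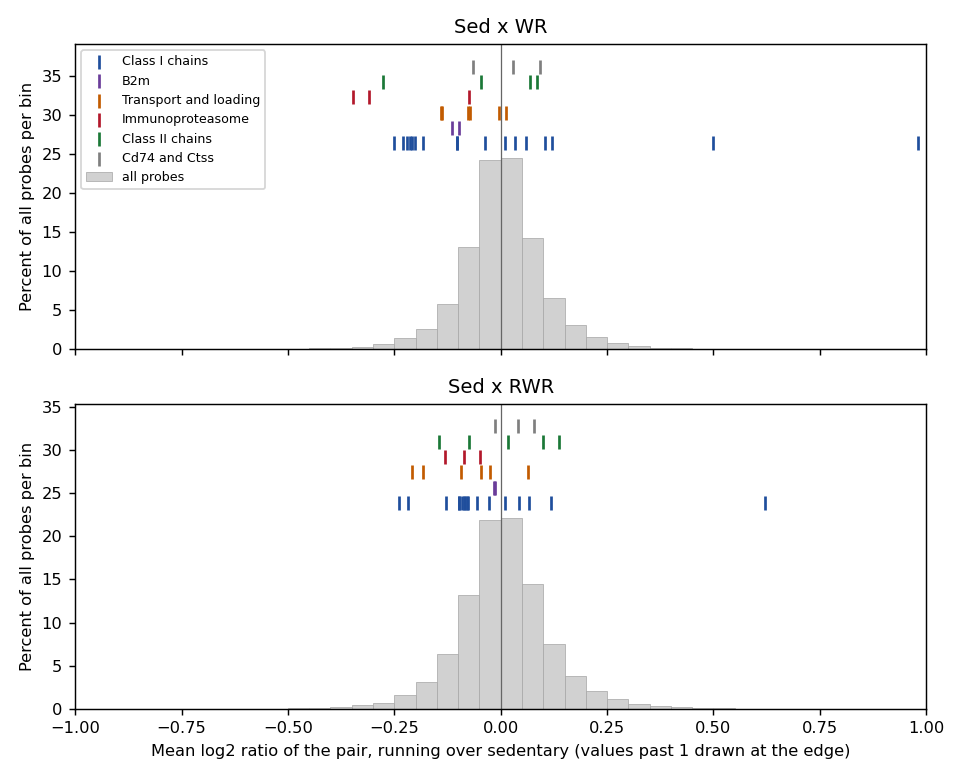
Grey bars give the percent of all probes with signal well above background for both pools on both chips (25492 in WR, 26920 in RWR) in bins of their mean log2 ratio, and coloured ticks above them give the mean of each antigen presentation probe by role. Most class I and all 3 immunoproteasome ticks lie left of 0 in WR, and the probe of RT1-M6-2 drawn at the right edge has a value of 1.57.

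Both comparisons used the sedentary group, so their values are given side by side and were not tested against each other. In matching dyes, the RWR ratio was above the WR ratio in both dye orientations at 17 of the 34 probes (50%), against 28.1% of 24953 probes, and below it at 7 (20.6%), against 28.9%. With normexp it was above at 15 of the 34, against 33.5% of all probes, and below at 8, against 29%. Without background correction it was above at 15, against 32.8%, and below at 10, against 26.8%. The 17 included all probes of RT1-A2, RT1-CE1, RT1-CE12, RT1-CE2 and RT1-S3, both of B2m, and Psmb8, Psmb9 and Psmb10. RWR minus WR was 0.26 with the running groups in Cy5 and 0.19 in Cy3 at Psmb9, and 0.09 and 0.34 at Psmb8. It was 0.12 and 0.08 at the 10-spot probe of B2m. The SD of at most 0.024 there is between spots of 1 chip. It leaves out the spread between chips and is no measure of error for this difference. The 7 were both probes of RT1-M6-2 (-0.96 and -0.93 at A_44_P426792), RT1-M5 (-0.20 and -0.26), RT1-M3-1, Canx, Pdia3 and A_44_P355928 of Ctss. The ratios of A_44_P426792 were smaller in both pairs with normexp or with no background correction. B2m, whose sign against sedentary followed the dye, had the same sign here in both orientations. A pool of WR and a pool of RWR rats still stand for 1 replicate each.

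**Figure D4:**
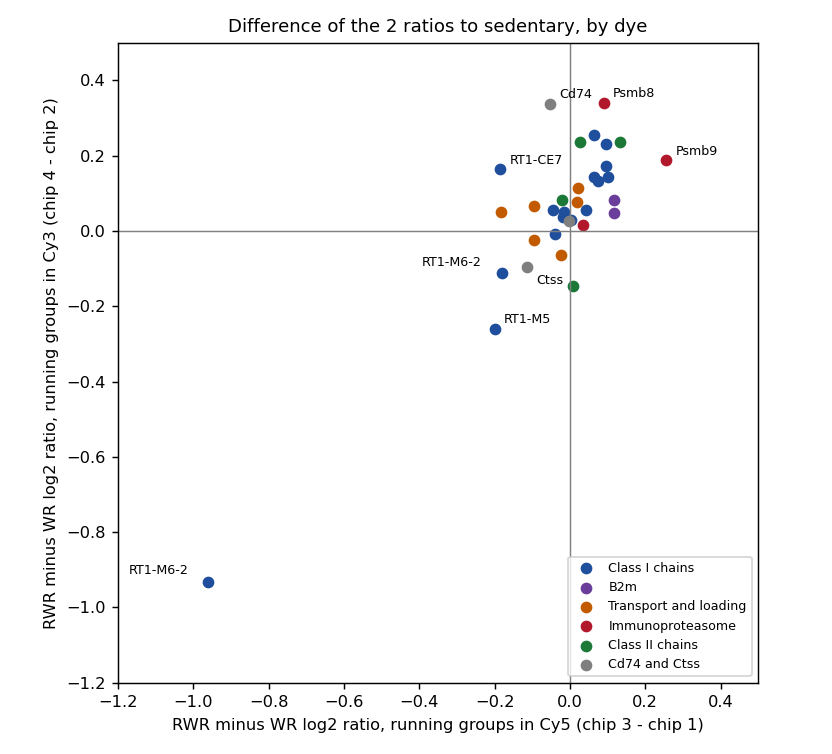
RWR ratio minus WR ratio (log2) of the 34 probes, with the running groups in Cy5 on the horizontal and in Cy3 on the vertical axis, coloured by role. The immunoproteasome and B2m lie at the upper right, where RWR was above WR in both orientations, and both RT1-M6-2 probes lie in the lower left.

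Other genes of the pathway were followed in a list of 40, of which 33 had a probe (44 probes). In WR 0 of the 44 probes were called, against 0.00244% of all probes up-regulated and 0.0293% down-regulated. In RWR 0 were called as well, against 0.00975% and 0.0488%. With shares this low, a count of 0 says little about these genes. Irf1, a factor of the interferon response, gave 0.34 and -0.75 in WR and 0.41 and -0.62 in RWR. The proteasome activator genes Psme1, Psme2 and Psme3 had means between -0.09 and 0.02 in WR, and the constitutive subunits Psmb6 and Psmb7 -0.02 and 0.01. The median over the genes of the list was -0.01 in WR and -0.02 in RWR.

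The ratios were also set against the interferon-response core in the window before the start site. Of the 7 genes with it, all well above background, 6 had a mean under 0 in WR, with a median of -0.08, whereas 12 of the 20 without it did, with a median of -0.09. In RWR 5 of 7 and 15 of 21 had a mean under 0, with medians of -0.05 and -0.08. Genes without the exact letters may hold a variant of the element, or a match outside the window. The groups therefore cannot separate genes with the element from genes without it, and no conclusion is drawn from them.

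In RNA of whole tissue, fewer cells of a type and less RNA per cell cannot be told apart. Of the 10 microglia markers 8 had a probe, all well above background, and the sum of their signals was 16259 and 15228 in the WR pool against 16036 and 14498 in the sedentary pool (chips 1 and 2), and 18941 and 16731 in the RWR pool against 17831 and 14891 (chips 3 and 4). This sum, set mostly by the bright probes of C1qb, C1qa and Aif1, was higher in the running pool on each chip. Itgam of the same list was under 0 on each chip (-0.01 and -0.20 in WR, -0.07 and -0.49 in RWR). P2ry12 gave -0.01 and 0.06 in WR and 0.28 and 0.29 in RWR. Cd68 gave -0.25 and 0.24 in WR and -0.08 and 0.30 in RWR. Csf1r gave 0.00 and 0.04, and -0.03 and -0.01, and Cx3cr1 0.16 and -0.03, and 0.06 and -0.05. Of 5 choroid plexus markers 4 had a probe, and their sum was 387 and 329 in the WR pool against 592 and 599 in the sedentary pool, and 766 and 673 in the RWR pool against 687 and 635. Ttr of this list was called down-regulated in WR (-0.72 and -0.99), and gave 0.20 and 0.04 in RWR. The 3 T cell markers with a probe (of 5) summed to 40.4 and 29.8 in the WR pool against 59.0 and 26.5, and to 35.7 and 51.4 in the RWR pool against 55.2 and 39.5, and 0 of them was well above background in both dyes on all chips. The only B cell marker with a probe (of 4), Cd79b, was not well above background on any chip. The dendritic cell list had 1 gene with a probe of 3 (Ccr7, 0.68 and -0.44 in WR). The blood list had 2 of 3, with medians of -0.02 in WR and 0.00 in RWR. The endothelium list had 3 of 5, with medians of 0.01 in WR and -0.17 in RWR. This -0.17 was the mean of 1 Flt1 probe, whose chips gave 0.10 and -0.43. In RWR the other Flt1 probe had a mean of 0.05 and Cldn5 of -0.01. Pecam1, well above background only in part, had -0.45. The part of these cell types in the ratios was not tested.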

How the data were processed

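Hippocampal RNA pools were compared on 4 two-colour chips of an Agilent rat array designed on the rn4 build, in dye-swapped pairs for WR and RWR against sedentary rats. The authors processed the scans with Agilent Feature Extraction 11.0.1.1, as the submitters' processing notes say. They deposited for each spot an intensity per dye, background-subtracted and LOWESS-normalized, and a log10 ratio (Cy5 over Cy3), which is 0 where the software could not measure it (1 or 2 member spots per chip). The p-value they deposited comes from the software's error model for 1 chip. The series matrix of the authors holds log10 ratios of the same processed signals, not turned for the dyes and not set to 0.

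From these files control spots and outlier spots (118 to 140 per chip, 0 of a member) were removed. The ratios were expressed as log2 of running over sedentary, and repeated spots were averaged (p-values by their median). Accessions were matched to the RefSeq table of GRCr8 without version, which named 10768 of 41012 probes. The genes named were all that the rule finds, described with values where they were well above background in both dyes of a pair, and a gene with several probes entered medians by its brightest probe. Members and lists were chosen with earlier results of these data known. Bounds used Aquantile-normalized log2 signals (the mean of the brighter pool against the higher of the lowest signal well above background and the probe's own signal). Across chips, 67.5% to 82.5% of 43379 spots were well above background. The number of chips limits the precision. The alternatives were the p-value filter, equal fold cutoffs, loess after normexp (offset 50) or after no correction of the background, centring on the median, only bright probes, the series matrix, every probe of a gene, and leaving out each chip, and for the counts by sign they were added after seeing the data. Python 3.11.15, numpy 2.4.6, pandas 2.3.3, matplotlib 3.10.9, R 4.3.3 and limma 3.58.1 were used. A comparison of protein sequences was not made here. The values of 1 gene of the pathway list are not reported here.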

Additional observations from a re-analysis of the deposited data

Results flagged for a closer look

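Probe A_44_P355928 of Ctss was above 0 on both chips in WR (mean 0.09) and below 0 on both chips in RWR (mean -0.01), a difference of -0.10. It was the only one of the 34 probes well above background on all chips with such opposite signs, against 4.62% of 24953 probes. With normexp and with no background correction the mean in RWR was 0.02, so that the means no longer had opposite signs. The difference was not tested, and the other Ctss probe did not show it (means of 0.03 and 0.04).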

How the results depend on the processing

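The 1 call in WR was lost (0 calls) with normexp and with no background correction, and it was kept under every other alternative that used both chips. With either chip of a pair left out, 3 to 8 probes were called in WR and 3 to 5 in RWR, and the cutoffs then rest on a single dye orientation. Under the other alternatives 0 probes were called in RWR. The median of the genes in WR was -0.0521 with normexp, -0.0357 without background correction, -0.0777 with only probes well above background, and -0.0537 to -0.0442 with a chip left out. In RWR it moved by less than the chips differed and lay between -0.104 and 0 with a chip left out. The number of probes above 0 on both chips in RWR was 3 with normexp and 3 without background correction, against 6. The other counts by sign stayed within 1.5 times. Of the ratios of single probes, 4 of 35 in WR and 5 of 36 in RWR moved by more than the chips' spread with normexp, and the sign of 2 and 4 changed. Each ratio pairs the running and the sedentary pool of 1 chip. A test paired by animals was not possible, because the labels give no replicate numbers and each comparison has 1 pair of pools. Signal near background limits the class II chains.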
